A study of Mus musculus with 4 samples.

Results

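The genes described here encode the proteins of the cytosolic ribosome, chosen by gene symbol (Rpl, Rps or Rplp followed by a number, with the Rps6k kinases left out). Of 48 such symbols with a probe set of their own on the array, 41 reached a level of 5 (log2) in any group, and these 41 are the members. They stand among 5151 genes that passed the same level, out of 12393 genes with a single symbol. Each gene was read from the probe set with its highest mean level, and values near that limit were those of Rpl12, whose highest group level was 5.40, and of Rps27, which was left out at 4.12.

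The ribosome translates mRNA into protein, with a small subunit that reads the mRNA and a large subunit that joins the amino acids. Ribosomal proteins fold the ribosomal RNA and hold the sites where translation factors bind, and the acidic P stalk of the large subunit recruits elongation factors. Their mRNAs are among the most abundant of a cell and start with a tract of pyrimidines, the terminal oligopyrimidine or TOP motif, through which their translation responds to the growth kinase mTOR.

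Expression was measured with Affymetrix mouse arrays in aortas of female C57BL/6 mice. Their ovaries were removed at an age of 12 to 14 weeks, and the aortas were taken 1 week later. Disrupting peptide mice (DPM) carry a transgene, driven by a CMV promoter, for residues 176 to 253 of estrogen receptor alpha, a peptide that keeps the receptor from striatin and so from rapid signalling to kinases. WT mice lack it, and all mice of both genotypes were ovariectomized. Treatment was ex vivo for 4 h, either with beta-estradiol (E2) at 10 nM or with its EtOH vehicle, and each sample pooled 4 aortas. By their titles the E2 groups had 2 replicates and the vehicle groups 3, but 1 level per group is used here. Nothing in the labels says whether replicates were separate pools or repeat arrays, so the deposited p-values may measure technical spread only.

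The markers of an artery wall were present: 10 of 10 smooth muscle, 9 of 9 fibroblast and 10 of 11 endothelial markers passed the level minimum. Cardiac muscle markers moved with the DPM vehicle group: 9 of 10 passed, and their median level was 7.19 there against 3.33 in WT vehicle, 2.89 in WT with E2 and 3.37 in DPM with E2. The 5' control probe set of Gapdh stood at 10.72 in WT vehicle, 11.26 in WT with E2, 11.39 in DPM vehicle and 10.18 in DPM with E2, while its 3' control stayed between 12.04 and 12.21. The beta-actin control probe sets (3', middle and 5') were lower with E2 in both genotypes. Their differences of E2 minus vehicle were -0.24, -0.44 and -0.41 in WT and -0.37, -0.53 and -0.58 in DPM. Standard errors of these ran from 0.23 to 0.43, and none had an unadjusted p under 0.05. The part of heart muscle and of RNA quality in the results below was not tested.

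Ribosomal protein genes differed little between the 4 groups. The largest gap between any pair of groups had a median of 0.18 on the log2 scale over the 41 members, against 0.27 over all genes, and was under 0.25 for 33 of them. The gap exceeded 0.4 for 1 member, Rpl27a of the large subunit, at 0.42. The median level of the members was 11.84 in WT vehicle, 11.87 in WT with E2, 11.90 in DPM vehicle and 11.96 in DPM with E2. Single levels ran from 5.09 to 13.67, but a level depends on the probes as well as on the mRNA, so genes are not ranked by it.

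**Figure D1:**
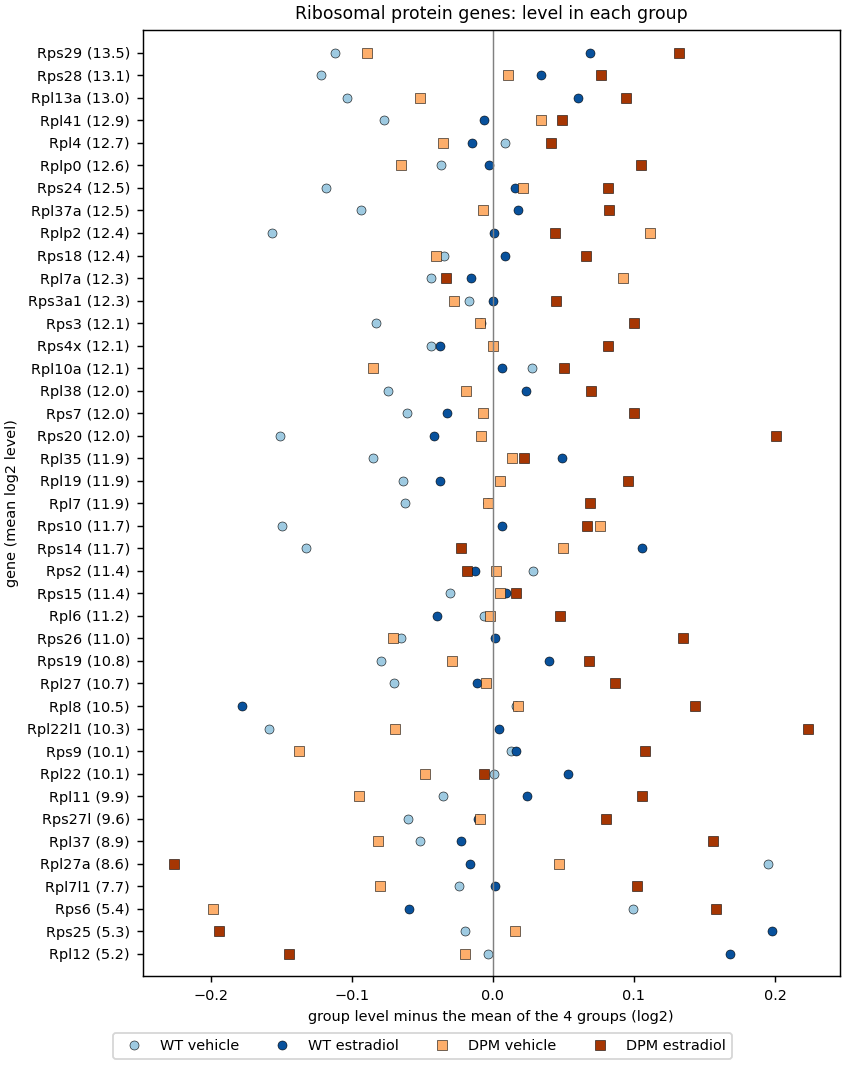
The horizontal axis gives each gene's level in a group minus its mean over the 4 groups (log2), and the vertical axis the 41 ribosomal protein genes with their mean level. DPM with E2 (dark red squares) is the highest group for 31 genes and WT vehicle (light blue circles) the lowest for 23.

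For most members the WT vehicle group or the DPM vehicle group was lowest and DPM with E2 highest. WT vehicle was the lowest group for 23 of the 41 (56.1%, against 25.4% of all genes) and DPM vehicle for 12 (29.3%, against 36.6%). DPM with E2 was the highest group for 31 (75.6%, against 38.1% of all genes), WT with E2 for 5, DPM vehicle for 3 and WT vehicle for 2.

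The first comparison asks what E2 does to these genes in WT aorta. Of 41 members, 34 were higher with E2 and 7 lower, where 51.8% of all genes were higher. Their median log2 difference was 0.06, against 0.01 over all genes, and the range from -0.21 to 0.24 corresponds to folds of 0.864 to 1.18. At an unadjusted limma p under 0.05 by the authors' deposited table, 7 members were higher (background 4.15% of all genes) and 1 was lower (background 2.64%), which makes 19.5% of the members against 6.79% of all genes. No member passed after Benjamini-Hochberg adjustment over all 5151 genes (lowest adjusted p = 0.444, limma), and 0 of all genes did. Endothelial markers moved with E2 in WT too, with 9 of 10 higher and a median of 0.33, and their part was not tested. In pooled aortas, a change in RNA per cell and a change in the number of cells of a type cannot be told apart.

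The members' errors were small beside those of all genes, and the part of this in the number of calls was not tested. The standard error (SE) of the WT difference, recovered from deposited folds and p, had a median of 0.06 over the members, 0.11 over the 379 genes with a mean level of at least 10 and 0.15 over all genes. A member of median error thus needed a fold of 1.11 for an unadjusted p of 0.05, where the median gene needed 1.29. Of those 379 genes, 7.12% were higher and 3.43% lower at that p in WT, 10.6% in all. They include many members, among them all 8 called in WT.

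Rpl41, which encodes a very small peptide, was higher with E2 in WT by 0.07 ± 0.07, and Rpl4 of the large subunit stood at -0.02 ± 0.06.

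Small subunit genes made up 4 of the 7 higher members. Rps24, in which human mutations cause Diamond-Blackfan anaemia, had levels of 12.36 in WT vehicle, 12.50 in WT with E2, 12.50 in DPM vehicle and 12.56 in DPM with E2. WT vehicle was its lowest group, and the WT difference was 0.13 ± 0.04 (SE; adjusted p = 0.444 by limma). Rps28 stood at 12.93 in WT vehicle, 13.09 in WT with E2, 13.06 in DPM vehicle and 13.13 in DPM with E2, again lowest in WT vehicle, with a WT difference of 0.16 ± 0.05. Rps29, a zinc-binding protein of the small subunit head, had 13.43 in WT vehicle and 13.61 with E2, and 13.45 and 13.67 in DPM. On this probe set of Rps29 both E2 groups lay above both vehicle groups, and the WT difference was 0.18 ± 0.07. Another probe set of Rps29, at 12.30 in WT vehicle, was highest in DPM vehicle, with differences of 0.06 ± 0.05 in WT and -0.01 ± 0.07 in DPM. A further one, at 11.98, kept both E2 groups above, with 0.08 ± 0.09 in WT. Rps19, the gene most often mutated in human Diamond-Blackfan anaemia, went from 10.68 to 10.79 with E2 in WT, a difference of 0.12 ± 0.05, and from 10.73 to 10.82 in DPM. Rps14, a small subunit protein of the decoding platform, had the highest WT difference of all members at 0.24 ± 0.11, without reaching an unadjusted p under 0.05.

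Among large subunit genes, Rpl38, which mouse mutants link to the translation of Hox mRNAs, went from 11.97 to 12.07 with E2 in WT and from 12.03 to 12.12 in DPM. Its WT difference of 0.10 ± 0.03 was small in size and in error. Rpl35, which lies at the exit of the peptide tunnel, had 11.85 in WT vehicle, 11.99 in WT with E2, 11.95 in DPM vehicle and 11.96 in DPM with E2. WT vehicle stood apart from the other 3 groups there, with a WT difference of 0.13 ± 0.04. Rpl13a, which in human monocytes can leave the ribosome to silence inflammatory mRNAs, was higher with E2 in WT by 0.16 ± 0.06, from 12.88 to 13.05, and went from 12.93 to 13.08 in DPM. The single member that was lower at that unadjusted p was Rpl8, a protein next to the catalytic centre, with 10.50 in WT vehicle and 10.31 in WT with E2 (-0.19 ± 0.06, adjusted p = 0.604 by limma). Rpl27a (-0.21 ± 0.21) and Rps6 (-0.16 ± 0.20), the substrate of the S6 kinases, were lower within their errors.

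Probe set choice mattered for these calls. Of the 41 chosen probe sets, 16 have a suffix (_x_at or _s_at) that marks possible binding to related transcripts, and without such probe sets 2 of 33 members were higher in WT at an unadjusted p under 0.05 instead of 7 of 41. Rps24 then stood at -0.07 ± 0.26 in WT, on a probe set with a level of 6.33 in WT vehicle, and Rpl35 at 0.00 ± 0.07. The 3 other _x_at probe sets of Rps24 had WT differences of 0.13, 0.13 and 0.14, with WT vehicle levels from 10.42 to 11.74. Over all 77 probe sets of the members that passed the level, 11 were higher at that p. On the main choice of probe sets, 4.15% of all genes were higher in WT at that p.

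**Figure D2:**
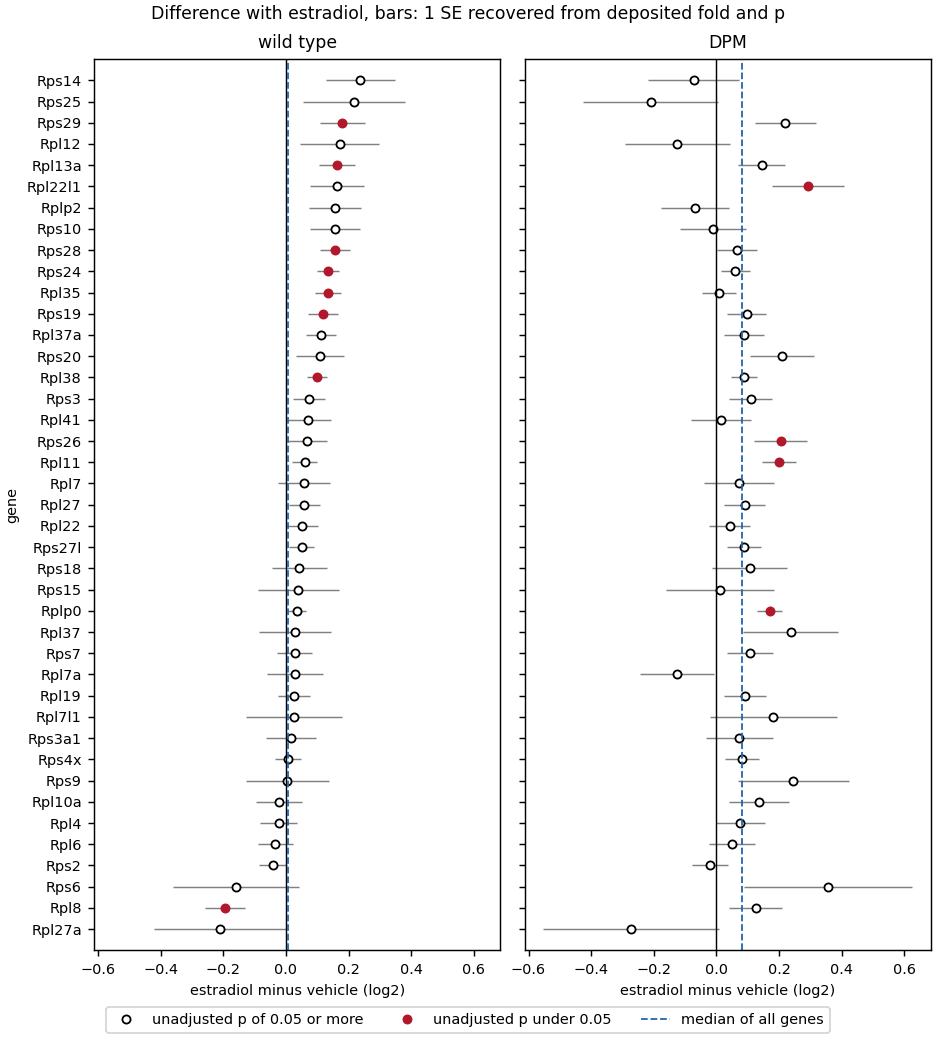
The horizontal axes give the log2 difference of E2 minus vehicle in WT (left) and DPM (right) for each of the 41 genes, ordered by the WT value, with bars of 1 recovered SE, filled red points at an unadjusted p under 0.05 and a dashed line at the median of all genes. In WT 7 filled points lie right of zero and 1 left, and in DPM all 4 lie right, where the median of all genes is 0.08.

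The second comparison asks for the same response in DPM aorta. The recovered errors were 1.331 times those in WT, with a median SE of 0.20 against 0.15 over all genes, although the titles give both genotypes equal replicate numbers. Counts of calls in the 2 genotypes are therefore not on equal precision. Of 41 members, 33 were higher with E2 and 8 lower, where 65.9% of all genes were higher. Their median of 0.09 lay beside a median of 0.08 over all genes, and 22 of the 41 were above the latter. At an unadjusted p under 0.05 by the authors' deposited table, 4 members were higher (background 4.23%) and 0 lower (background 0.971%), against 5.2% of all genes in either direction. Among the 379 genes of high mean level, 2.37% were higher and 0.792% lower, 3.17% in all. The higher ones include the members Rplp0, Rps26 and Rpl22l1. No member passed the adjusted threshold (lowest adjusted p = 0.688, limma), as 1 of all genes did (0.0194%). Cardiac markers had a median DPM difference of -3.02, with 0 of 9 higher. Leukocyte markers had 0.33 (6 of 7 higher), adipocyte 0.17 (4 of 6), fibroblast -0.01 (4 of 9), endothelial -0.06 (4 of 10) and smooth muscle -0.06 (1 of 10). The part of these cell types was not tested. None of the 4 calls was left once the median of all genes was subtracted.

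Rplp0, the scaffold of the P stalk, had levels of 12.52 in WT vehicle, 12.55 in WT with E2, 12.49 in DPM vehicle and 12.66 in DPM with E2. DPM with E2 was highest, and the DPM difference was 0.17 ± 0.04 (adjusted p = 0.688 by limma). Rpl11, which joins 5S RNA and can bind the p53 inhibitor Mdm2, had 9.88 in WT vehicle, 9.94 in WT with E2, 9.82 in DPM vehicle and 10.02 in DPM with E2. The DPM groups were its extremes, and the DPM difference was 0.20 ± 0.05. Rps26, which lines the channel where mRNA leaves the small subunit, stood at 10.89, 10.95, 10.88 and 11.09 in the same order, with a DPM difference of 0.21 ± 0.08. Only DPM with E2 stood apart for this gene. Rpl22l1, a paralogue of Rpl22, was higher by 0.29 ± 0.11 in DPM. Lower in DPM without reaching that p were Rpl27a (-0.27 ± 0.28), Rps25 (-0.21 ± 0.22), which some viral mRNAs need for translation, and Rpl7a (-0.13 ± 0.12).

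On the chosen probe sets 0 of the 41 genes had an unadjusted p under 0.05 in both genotypes (1.15% of all genes did), and 28 were higher with E2 in both (68.3%, against 35.3% of all genes). Another probe set of Rps24 passed in both by the authors' deposited table, at 0.13 ± 0.03 in WT and 0.13 ± 0.04 in DPM. Both were lower for 2, WT alone was higher for 6 and DPM alone for 5. WT and DPM responses come from different groups, but calling a gene in 1 genotype and not in the other does not show that its responses differ, which the next comparison tests.

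The third comparison tests whether the response to E2 differs between genotypes. The difference, DPM response minus WT response, was above 0 for 24 of 41 members, where 61.9% of all genes were above 0. Its median was 0.04 over the members and 0.07 over all genes, and the sign of the members' median turned to -0.03 once the median of all genes was subtracted. At an unadjusted p under 0.05 by the authors' deposited table, 2 members had a higher response in DPM (background 3.16%) and 0 a lower one (background 1.03%), where 4.19% of all genes were called in either direction. Of the 379 genes of high mean level 4 were called (1.06%), each higher. These 4 include the 2 members called, Rpl8 and Rplp0, so that share is not separate from the members. The lowest adjusted p was 0.989 by limma, and 1 of all genes passed that adjustment (0.0194%). Rpl8 differed by 0.32 ± 0.11, with a 95% interval of 0.06 to 0.58: its level was 10.50 in both vehicle groups, 10.31 in WT with E2 and 10.63 in DPM with E2. Rplp0 differed by 0.14 ± 0.05, with an interval of 0.01 to 0.26. Both calls were lost in the same setting, at 0.25 for Rpl8 and 0.07 for Rplp0. Markers of other cell types moved in this comparison too: cardiac markers had a median of -2.96 (0 of 9 higher), endothelial -0.48 (2 of 10), leukocyte 0.33 (6 of 7) and adipocyte 0.58 (6 of 6), and their part was not tested. For the 7 members called higher in WT, the difference of responses lay between -0.13 and 0.04 and none had an unadjusted p under 0.05. These 7 were picked by a high WT difference, which is subtracted here. Their values therefore cannot show whether their responses differ.

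The P stalk partners did not share 1 pattern. Rplp2, which forms the flexible arms of the stalk on Rplp0, had 12.26 in WT vehicle, 12.41 in WT with E2, 12.52 in DPM vehicle and 12.46 in DPM with E2. Its WT vehicle level was the lowest and DPM vehicle the highest, whereas Rplp0 was highest in DPM with E2 and lowest in DPM vehicle. The difference of responses was -0.22 ± 0.14 for Rplp2, without reaching an unadjusted p under 0.05.

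**Figure D3:**
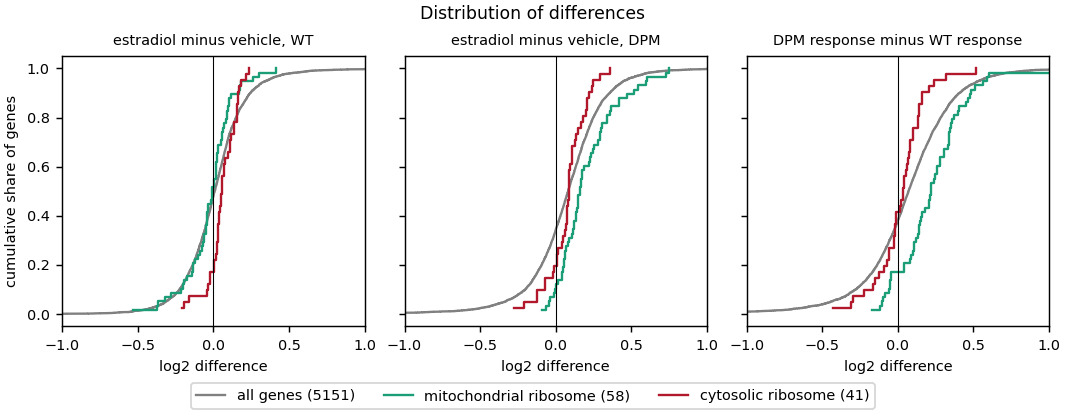
Each panel shows the cumulative share of genes (vertical) up to a log2 difference (horizontal, shown from -1 to 1) for the 41 cytosolic ribosomal protein genes, 58 mitochondrial ribosomal protein genes and all 5151 genes. In DPM and in the difference of responses the mitochondrial curve lies right of the cytosolic one, with medians of 0.16 against 0.09 and 0.22 against 0.04.

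Between genotypes no p is given in the deposited table, so the following differences were not tested. The SE of the difference of responses, whose median was 0.11 over the members, is an upper bound of their error if the groups are independent. In vehicle, 26 of 41 members were higher in DPM than in WT, where 42.1% of all genes were higher, with a median of 0.04 against -0.03 over all genes. In E2, 33 of 41 were higher, where 58.4% of all genes were, with a median of 0.06 against 0.04. Cardiac markers had a median difference of 3.05 in the vehicle comparison and 0.50 in the E2 comparison. Endothelial markers had medians of 0.26 in vehicle (8 of 10 higher) and -0.34 in E2 (1 of 10). Leukocyte markers had -0.14 (2 of 7) and 0.29 (6 of 7), and adipocyte markers -0.22 (1 of 6) and 0.26 (6 of 6). Smooth muscle and fibroblast medians lay between -0.10 and 0.04, but single markers were spread more widely. In vehicle, fibroblast markers ran from -0.24 to 2.44 (5 of 9 higher) and smooth muscle markers from -0.21 to 0.80 (3 of 10 higher). The part of these cell types was not tested.

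Furthest up in DPM vehicle were Rplp2 (0.27, bound 0.14), Rps10 (0.23, bound 0.13), a small subunit protein near the mRNA entry side, and Rps14 (0.18, bound 0.18). Furthest down in vehicle were Rps6 (-0.30, bound 0.34), Rps9 (-0.15, bound 0.22) and Rpl27a (-0.15, bound 0.35), none beyond its bound. In E2 the highest were Rpl8 (0.32, bound 0.11), Rps20 (0.24, bound 0.13), a protein of the small subunit head, and Rpl22l1 (0.22, bound 0.14). Rps20 had 11.87 in WT vehicle, 11.98 in WT with E2, 12.02 in DPM vehicle and 12.22 in DPM with E2, so that both DPM groups lay above both WT groups. Another probe set of Rps20 had 11.21, 11.30, 11.29 and 11.48 in the same order, with DPM vehicle below WT with E2. Lowest in E2 were Rps25 (-0.39, bound 0.27), Rpl12 (-0.31, bound 0.21), part of the stalk base, and Rpl27a (-0.21, bound 0.35).

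**Figure D4:**
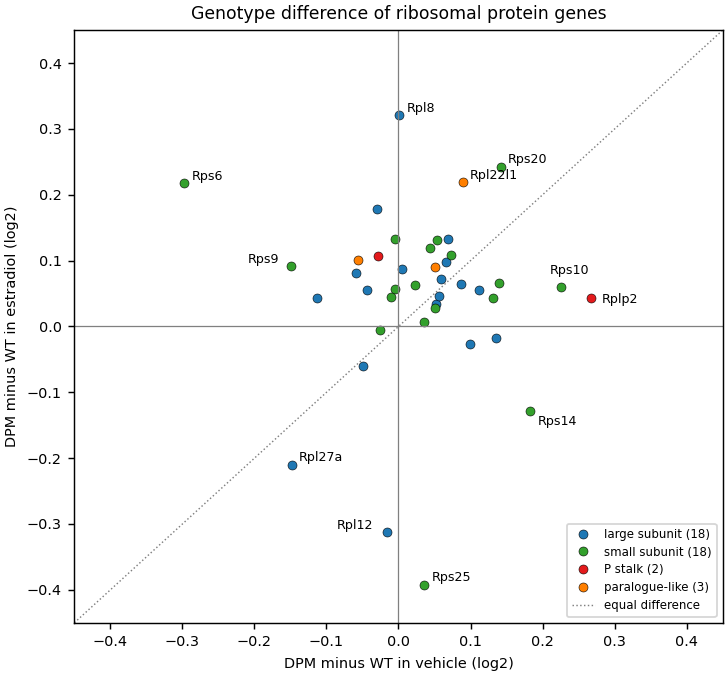
The horizontal axis gives DPM minus WT in vehicle and the vertical axis DPM minus WT in E2 (log2) for each of the 41 genes, coloured by role, with a dotted line of equal difference. Rpl8 lies at 0.00 in vehicle and 0.32 in E2, and Rps25 lies lowest in E2 at -0.39.

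By subunit the medians lay close together. The 18 large subunit genes had a median of 0.06 in WT and 0.08 in DPM, with 13 and 15 higher with E2. The 18 small subunit genes had medians of 0.07 and 0.09, with 16 and 14 higher. Medians of the difference of responses were 0.00 and 0.04.

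The 3 paralogues among the members, Rpl22l1, Rps27l and Rpl7l1, had differences with E2 above 0 in both genotypes, a pattern held by 35.3% of all genes. Rpl22l1, which mouse Rpl22 holds down, stood at 10.18 in WT vehicle, 10.34 in WT with E2, 10.27 in DPM vehicle and 10.56 in DPM with E2. Each E2 level was above both vehicle levels, and the WT difference was 0.16 ± 0.09. Rpl22 itself stayed between 10.02 and 10.13 on its chosen probe set, with differences of 0.05 ± 0.05 in WT and 0.04 ± 0.07 in DPM. Another probe set of Rpl22, an _s_at at 5.93 in WT vehicle, was higher with E2 in both genotypes. Its differences were 0.24 ± 0.08 in WT, at an unadjusted p under 0.05 by the authors' deposited table, and 0.21 ± 0.11 in DPM. Rps27l, a target of p53, went from 9.57 to 9.62 in WT and from 9.62 to 9.71 in DPM. Rpl7l1 went from 7.64 to 7.66 in WT and from 7.58 to 7.76 in DPM, with errors of 0.15 and 0.20 on the differences, beside Rpl7 at 0.06 ± 0.08 and 0.07 ± 0.11. The mouse muscle paralogue Rpl3l and the testis paralogue Rpl39l did not leave the lowest level of the array, 2.29, by more than 0.01 in any group.

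The low members need care. Rpl12, Rps25 and Rps6 had highest levels of 5.40, 5.52 and 5.56, and Rpl14, Rpl39, Rps27, Rpl3l, Rpl39l, Rps4l and Rps15a-ps6 stayed below 5. Of these 10 symbols, 6 also stand on other probe sets that carry several symbols and were left out, where their highest WT vehicle levels ran from 10.67 to 13.77. Whether those probe sets read these genes or another transcript was not tested. Leaving out Rpl12, Rps25 and Rps6 changed no count of members at an unadjusted p under 0.05.

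The genes printed here with their start sites are the members called in any comparison for which RefSeq lists 1 start, 8 of 12. Promoters were matched by symbol for 36 of 41 members (RefSeq, GRCm38.p6). Each line gives 30 bases before and 20 from the annotated start, on the coding strand, 5′ to 3′, with the longest run of pyrimidines in capitals.
Rpl11, chr4:136053374-136053423, minus strand: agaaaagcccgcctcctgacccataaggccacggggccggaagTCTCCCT
Rpl13a, chr7:45128726-45128775, minus strand: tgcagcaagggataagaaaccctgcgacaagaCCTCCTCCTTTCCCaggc
Rpl22l1, chr3:28805478-28805527, plus strand: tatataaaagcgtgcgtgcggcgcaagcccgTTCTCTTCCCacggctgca
Rpl35, chr2:39005112-39005161, minus strand: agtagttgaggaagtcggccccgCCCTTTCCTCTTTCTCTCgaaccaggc
Rpl38, chr11:114668550-114668599, plus strand: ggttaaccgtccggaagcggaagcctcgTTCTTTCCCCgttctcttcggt
Rplp0, chr5:115559437-115559486, plus strand: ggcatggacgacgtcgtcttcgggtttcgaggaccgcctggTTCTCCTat
Rps26, chr10:128626487-128626536, minus strand: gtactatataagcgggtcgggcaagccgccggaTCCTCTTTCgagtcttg
Rps28, chr17:33824543-33824592, minus strand: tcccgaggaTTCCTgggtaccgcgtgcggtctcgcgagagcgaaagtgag

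A run of at least 8 pyrimidines within 20 bases before to 30 after a listed start was found for 20 of 36 members (55.6%) and for 21.3% of 17491 protein-coding genes. A start at C followed by at least 4 pyrimidines was found for 6 members (16.7%) and for 2.67% of all. Annotated starts may lie some bases from the true start, so these shares do not count the mRNAs with a TOP motif. Rpl35 carries a run of 18 bases across its start, Rpl13a 1 of 14 just after it, and Rps28 none longer than 5 in the stretch shown. Over the whole 300 bases and both strands, CCGGAAG, a core of ETS factor sites, was found for 50% of members and 12.9% of all, and GGGCGG, a core of Sp1 sites, for 61.1% and 49.2%. The palindromic estrogen response element, GGTCA and TGACC with any 3 bases between, was found for 0 of 36 members and 0.0629% of all. These 5 features were chosen after the members' start sequences were seen, and overlaps between motifs were not removed. A match describes letters in a window. The 20 members with a pyrimidine run had a median WT difference of 0.05 and a DPM difference of 0.09, and the other 16 had 0.05 and 0.08.

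Genes that work with the ribosome were read from lists beside the members. Of 39 translation factors, 20 were higher with E2 in WT (median 0.01) and 31 in DPM (median 0.10); 1 was higher and 1 lower in WT at an unadjusted p under 0.05, and 4 higher and 1 lower in DPM. Gspt1, which encodes the release factor eRF3, was higher in WT by 0.29 ± 0.10 and in DPM by 0.34 ± 0.13. Eif3l, a subunit of the initiation factor that holds the small subunit, had a higher response in DPM by 0.37 ± 0.10. Of 6 ribosome partners and fusions outside the symbol rule, 2 were higher in WT and 5 in DPM. One of the 2 was Tpt1, itself encoded by a TOP mRNA, at 0.10 ± 0.04 in WT and 0.12 ± 0.05 in DPM. Of 50 ribosome biogenesis genes, 22 were higher in WT (median -0.02) and 34 in DPM (median 0.08), with Polr1d, a subunit shared by RNA polymerases I and III, higher by 0.23 ± 0.05 and 0.26 ± 0.07. Of 15 genes for mTOR and TOP mRNA control, 9 were higher in each genotype. Mnt, a repressor that opposes Myc, was higher in WT by 0.31 ± 0.12, and its response was lower in DPM by -0.60 ± 0.20. Over all genes, 51.8% were higher in WT and 65.9% in DPM. No gene of these 4 lists reached an adjusted p under 0.05 by limma in any of the 3 tested comparisons.

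Mitochondrial ribosomal proteins, which build the separate ribosome of that organelle, had larger medians than the cytosolic ones in DPM. Of 58, 28 were higher with E2 in WT (median -0.01) and 51 in DPM (median 0.16). The difference of responses had a median of 0.22, with 10 higher and 0 lower at an unadjusted p under 0.05, against a median of 0.07 over all genes (3.16% higher, 1.03% lower) and of 0.04 with 2 higher for the 41 cytosolic members. Both responses fed it: 5 mitochondrial genes were lower and 0 higher in WT, and 10 were higher in DPM. Mrpl15, read from an _x_at probe set, had the largest, 1.26 ± 0.15 (adjusted p = 0.257 by limma). Cytosolic against mitochondrial genes was not tested, since genes are not replicates.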

How the data were processed

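The authors deposited 1 log2 level per probe set and group, 3 log2 differences and their unadjusted p-values, per the file headers. GCRMA and limma are named in the submitters' processing notes, without version or role; other steps were not given in the sources used here. Both deposited files held identical levels, and the differences equalled those of the levels within 5e-08. Symbols came from the platform's probe annotation, and probe sets with several symbols (691), with none (1606) or for controls (64) were left out of 22690. The SE of each difference was recovered from deposited fold and p at 6.44 total degrees of freedom, where errors of the 3 comparisons keep 1 ratio; the recovery was tested on simulated data. P-values were adjusted over 5151 genes by Benjamini-Hochberg with a threshold of 0.05, and unadjusted counts stand beside them. Named members were those called, or furthest in each direction, in each comparison, the 5 highest and 5 lowest by level, the P stalk, and paralogues with their parents. Rpl14, Rpl39, Rps27, Rpl3l, Rpl39l, Rps4l and Rps15a-ps6 were named beyond that rule, and genes of other lists only among the 3 largest called per list and comparison. Members and lists were chosen with earlier results of these data known. Scaling, level filters, probe set choice and suffix were varied. The number of arrays limits the precision. Python 3.11.15, numpy 2.4.6, scipy 1.17.1 and pandas 2.3.3 were used.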

Additional observations from a re-analysis of the deposited data

How the results depend on the processing

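No paired analysis was possible because each group is given as 1 level, and for the same reason no replicate could be left out. All counts here are at an unadjusted p under 0.05 unless called adjusted, and causes were not tested. With the median of all genes subtracted, the members' median difference of responses turned to -0.0341, higher members became 0 in DPM and 0 in the difference of responses, and 2 had a lower response in DPM. With quantile normalized levels, higher members were 2 in DPM and 1 in the difference. In WT, higher members were 5 instead of 7 under each of these scalings. The members' median WT difference went from 0.0588 to 0.0505 with the median subtracted and to 0.0297 with quantile normalized levels. Both scalings left 0 adjusted calls over all genes in DPM and in the difference. Without a level filter, 2 members were lower in WT, and over 12393 genes 408 were called in DPM and 348 in the difference, with 0 adjusted calls in the latter. At a level of at least 7 there were 201 calls over all genes in WT (1 adjusted), 127 in DPM (0 adjusted) and 85 in the difference (0 adjusted), among 2579 genes. In the main setting 4.15% of all genes were higher in WT. Higher members in WT were 11 of 77 with every probe set counted, 3 of 41 with the probe set of lowest mean and 2 of 33 without _s_at and _x_at probe sets. The last setting gave 1, 2 and 2 adjusted calls over all genes in WT, DPM and the difference. Rps24 in WT was -0.0672 under both of the last 2 choices, and Rpl35 was -0.0018 under the last. An alternative chosen after seeing the data added probe sets with several symbols: of 128, 12 were higher and 3 lower in WT, 17 higher in DPM and 5 higher in the difference. Of all genes in the main setting, 4.15% were higher and 2.64% lower in WT, 4.23% higher in DPM and 3.16% higher in the difference.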

Other observations

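Many ribosomal protein mRNAs stand on probe sets that carry several symbols, which the symbol rule leaves out. Of these, 87 passed the level. In WT 61 were higher with E2, with a median of 0.03, and 5 were higher and 2 lower at an unadjusted p under 0.05 (8.05%), where 51.8% of all genes were higher and 6.79% called. In DPM 74 were higher, with a median of 0.10, and 13 were called (14.9%), where 65.9% of all genes were higher, with a median of 0.08, and 5.2% were called. The difference of responses was above 0 for 67 of the 87, with a median of 0.05, and 3 were called (3.45%). Over all genes 61.9% were above 0, with a median of 0.07, and 4.19% were called. A single probe set of the 87 had levels of 11.73 in WT vehicle, 11.59 in WT with E2, 11.63 in DPM vehicle and 11.80 in DPM with E2. Its difference was -0.14 ± 0.03 in WT and 0.17 ± 0.03 in DPM, and the responses differed by 0.31 ± 0.04. It was chosen after its values were seen, and its unadjusted p was not set against all genes.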
